A study of Mus musculus with 24 samples.

Results

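The 10 genes described here encode factors that store maternal mRNA in the oocyte or remove it after fertilization: *Btg4*, *Cnot6l*, *Cnot7*, *Zar1*, *Zar1l*, *Patl2*, *Ybx2*, *Cpeb1*, *Dcp1a* and *Zfp36l2*. They were taken by name from the RNA read counts of mouse preimplantation embryos, 10 of 56326 counted genes and repeat families, and all 10 passed the filter on low counts in every comparison. Zygotes of B6D2F1 mice, the hybrid of the C57BL/6 and DBA/2 strains, whose parents were 8 weeks old, had been injected into the male pronucleus at 20 µM. The control embryos received a scrambled antisense oligonucleotide (ASO, a short synthetic strand that pairs with an RNA and leads to its cleavage). The MERVL-KD embryos received a mix of 3 ASOs against MERVL, an endogenous retrovirus transcribed in 2-cell embryos. Total RNA was sequenced at the 2-cell stage (1.5 days post-coitum) and at the 4-cell and 8-cell stages (both labelled 2.5 days), with 2 control and 2 MERVL-KD libraries per stage, which makes 12. Each library pooled 30 embryos freed of the zona pellucida, so embryo-to-embryo differences are not seen. Since nothing in the labels ties the replicates to separate injection days, p-values measure only the spread between these pools. An embryo still holds RNA made in the oocyte, so a count does not tell a transcript inherited from the mother from one made after fertilization.

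A growing oocyte makes mRNA in excess and keeps much of it silent with a short poly(A) tail, bound by proteins such as YBX2, ZAR1, ZAR1L, PATL2 and CPEB1. During meiotic maturation the tails of selected messages are lengthened and the messages translated. Among their products is BTG4, which brings the CCR4-NOT deadenylase, with its catalytic subunits CNOT6L and CNOT7, to the remaining maternal messages. Deadenylated mRNA is then decapped by DCP2 with its activator DCP1A and degraded, and ZFP36L2 recruits the same machinery to messages with AU-rich elements.

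Several of these messages carry in their own 3′ untranslated region (UTR) the element that CPEB1 binds. The last 150 bases of 1 annotated transcript per gene (GENCODE vM21, GRCm38) were searched on the transcribed strand for the cytoplasmic polyadenylation elements TTTTAT and TTTTAAT, which can share T bases at their ends. One or both stood in 4 of the 10 genes (*Btg4*, *Cnot7*, *Ybx2* and *Dcp1a*), compared with 22% of 20303 protein-coding genes. The poly(A) signal AATAAA or ATTAAA stood in 9 of 10 members and in 77.5% of all genes, and the AU-rich element TATTTAT in *Cnot7* alone, compared with 5.71% of all genes. Over the whole 3′ UTR, TATTTAT also stood 3 times each in *Cnot6l* and *Zfp36l2* and once each in *Cpeb1* and *Dcp1a*. TTTTAT stood over the whole 3′ UTR 10 times in *Cnot6l*, 4 times in *Zfp36l2* and 2 times in *Cpeb1*, which lack it in the window. No share of all genes was counted for whole 3′ UTRs. The windows of *Zar1* and *Zar1l*, whose annotated 3′ UTRs hold 146 and 14 bases, reach into the coding sequence. A match describes letters in the reference strain and shows no binding. In *Dcp1a* the element TTTTAAT overlaps the poly(A) signal AATAAA. For each of the 4 genes the element nearest to its transcript end is shown first, as 30 bases 5′ to 3′ with the element in capitals, and below them the poly(A) signals of *Cnot6l* and *Zar1*, where these letters were not found in the window.
Btg4, chr9:51119476-51119505, plus strand, 96 bases before the end: ctttatgtaaaaTTTTATgaacactagtga
Cnot7, chr8:40493038-40493067, minus strand, 20 bases before the end: tcttaaggtacaTTTTATatcaataaaaat
Ybx2, chr11:69941532-69941561, plus strand, 62 bases before the end: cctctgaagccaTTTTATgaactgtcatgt
Dcp1a, chr14:30527010-30527039, plus strand, 43 bases before the end: caaatatatttTTTTAATaaaatttcaaaa
Cnot6l, chr5:96070340-96070369, minus strand, 25 bases before the end: ttccctgtaggcAATAAAtggccattttgc
Zar1, chr5:72577117-72577146, minus strand, 21 bases before the end: ataaagcctgtgAATAAAaggtattgcaaa

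The libraries held 28167085 to 41482526 counts. The targeted family MERVL-int took 6.33% and 6.57% of the counts in control 2-cell libraries and 0.157% and 0.143% in MERVL-KD (log2 fold change -5.72, SE 0.0763, adjusted p = 1.28e-16), and it stayed lower at the later stages. No stretch of the transcribed strand of the 10 genes, introns included, came closer than 5 mismatches to any of the 3 MERVL ASOs, and the scrambled ASO came no closer than 6. The defining markers of cumulus and granulosa cells and of sperm were near 0, with the 8 and 5 genes of those lists summing to at most 4.05 and 1.54 CPM. Oocyte transcripts were present in every library, and their sum was lower in MERVL-KD at 2 cells, as given below. CPM, the usual counts-per-million unit of library-scaled expression, was scaled by the trimmed mean of M-values (TMM) over the 12 libraries, and gives levels relative to the library. With no spike-in, the counts do not show a change of total RNA per embryo or per cell.

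Control 2-cell embryos held the members at very unequal levels. Per length, as CPM divided by exon length in kilobases (RPKM, mean ± SD, n = 2), *Btg4* stood at 627 ± 42.2, the 33rd highest of 45565 detected genes. *Ybx2* followed at 95.1 ± 7.14 RPKM, *Cnot7* at 66.3 ± 4.03 and *Cnot6l* at 60.1 ± 3.86, the last pair with overlapping ranges of mean ± SD. *Zar1l* lay at 15.4 ± 0.341 RPKM, *Dcp1a* at 14.9 ± 0.0923 and *Zar1* at 9.43 ± 0.867. *Cpeb1* at 7.21 ± 0.703 and *Zfp36l2* at 6.43 ± 0.123 RPKM again had overlapping ranges of mean ± SD. *Patl2* came last at 0.876 ± 0.0722 RPKM, from 63 and 82 counts, so its folds are the least precise of the set. The storage factors were spread from the second place in this order to the last.

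In control embryos most of the set fell between the 2-cell and the 4-cell stage. Of the 10 members, 8 fell and 1 rose (edgeR's quasi-likelihood test in 1 fit of 12 libraries, Benjamini-Hochberg adjusted p under 0.05), 7 of the 8 by at least 2-fold. Over all 24850 features tested, 28.1% fell and 26.6% rose. The median log2 change was -2.05 over the members and -0.02 over all features. Of all features, 23.7% fell by at least 2-fold and passed. DESeq2's size factors or library size in place of TMM left 8 lower and 1 higher.

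The deadenylation factors fell steeply. *Btg4* was at 1680 and 1530 CPM in the 2-cell libraries and at 51.9 and 62.5 CPM in the 4-cell libraries (log2 fold change -4.81, SE 0.194, a 28-fold fall, adjusted p = 5.22e-11). *Cnot6l*, one of the catalytic subunits, went from 648 and 591 CPM to 52.3 and 66.1 CPM (log2 fold change -3.39, SE 0.143, adjusted p = 1.32e-13). *Cnot7*, another catalytic subunit, went from 403 and 369 CPM to 95 and 90.5 CPM (log2 fold change -2.06, SE 0.11, adjusted p = 9.14e-13). The 2 stages are far apart for all 3 genes, and the adaptor fell by the most. The exons of *Cnot7* overlap those of *Zdhhc2* on the opposite strand, which held at most 415 counts in a library. Whether the counting used strand is not given in the sources used here.

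Of the 5 storage factors 4 fell, by unequal amounts, and *Patl2* did not pass. *Ybx2*, a germ-cell Y-box protein that coats mRNA, went from 189 and 170 CPM to 17.2 and 12.8 CPM (log2 fold change -3.58, SE 0.154, adjusted p = 3.57e-14). *Zar1l*, a zinc-finger paralog of *Zar1*, went from 14.0 and 13.6 CPM to 1.59 and 0.973 CPM (log2 fold change -3.42, SE 0.344, adjusted p = 2.21e-08). *Cpeb1* went from 32.3 and 28.1 CPM to 6.33 and 8.34 CPM (log2 fold change -2.05, SE 0.2, adjusted p = 1.38e-08). These 3 genes showed no overlap between the stages. *Zar1*, which binds and silences maternal mRNA, was at 30.5 and 34.8 CPM and then at 19.6 and 22.9 CPM, a separate but small step (log2 fold change -0.62, SE 0.158, adjusted p = 0.00213). *Patl2*, a translational repressor of the oocyte, was at 2.01 and 2.26 CPM and then at 0.851 and 1.25 CPM, and its change did not pass (log2 fold change -1.02, SE 0.531, 95% interval -2.13 to 0.08, adjusted p = 0.11). Its stages did not overlap either, and it passed with a minimum of 10 counts in every library (log2 fold change -1.09, adjusted p = 0.031).

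The 2 remaining factors moved apart. *Dcp1a*, the decapping activator, went from 122 and 123 CPM to 58.2 and 53.7 CPM (log2 fold change -1.13, SE 0.111, adjusted p = 1.47e-08). *Zfp36l2*, the binder of AU-rich elements, was the member that rose, from 23.0 and 22.4 CPM to 39.9 and 34.8 CPM (log2 fold change 0.72, SE 0.191, adjusted p = 0.00343). In both genes the 2-cell and the 4-cell libraries were separate.

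Between the 4-cell and the 8-cell pools of control embryos, which share a day label, most members differed little. Only *Btg4* passed among the members, at 36.4 and 33.3 CPM in the 8-cell libraries, below both 4-cell libraries (log2 fold change -0.72, SE 0.172, adjusted p = 0.0278). Of all features, 3.02% fell and 3.12% rose. Without the second 4-cell library, or without either 8-cell library, the *Btg4* step no longer passed (adjusted p = 0.173, 0.101 and 0.151). The other members lay at 8 cells close to their 4-cell values, for example *Cnot6l* at 58.0 and 66.4 CPM, *Cnot7* at 97.8 and 81.4 CPM, *Ybx2* at 16.5 and 15.6 CPM, *Dcp1a* at 57.5 and 49.7 CPM and *Zar1* at 22.9 and 23.8 CPM. *Cpeb1* stood at 7.11 and 5.93 CPM, *Zar1l* at 1.34 and 0.938 CPM and *Patl2* at 0.871 and 0.503 CPM. *Zfp36l2* reached 47.6 and 47.0 CPM, above both 4-cell libraries, a step that did not pass (log2 fold change 0.34, SE 0.188, 95% interval -0.06 to 0.73, adjusted p = 0.342).

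**Figure D1:**
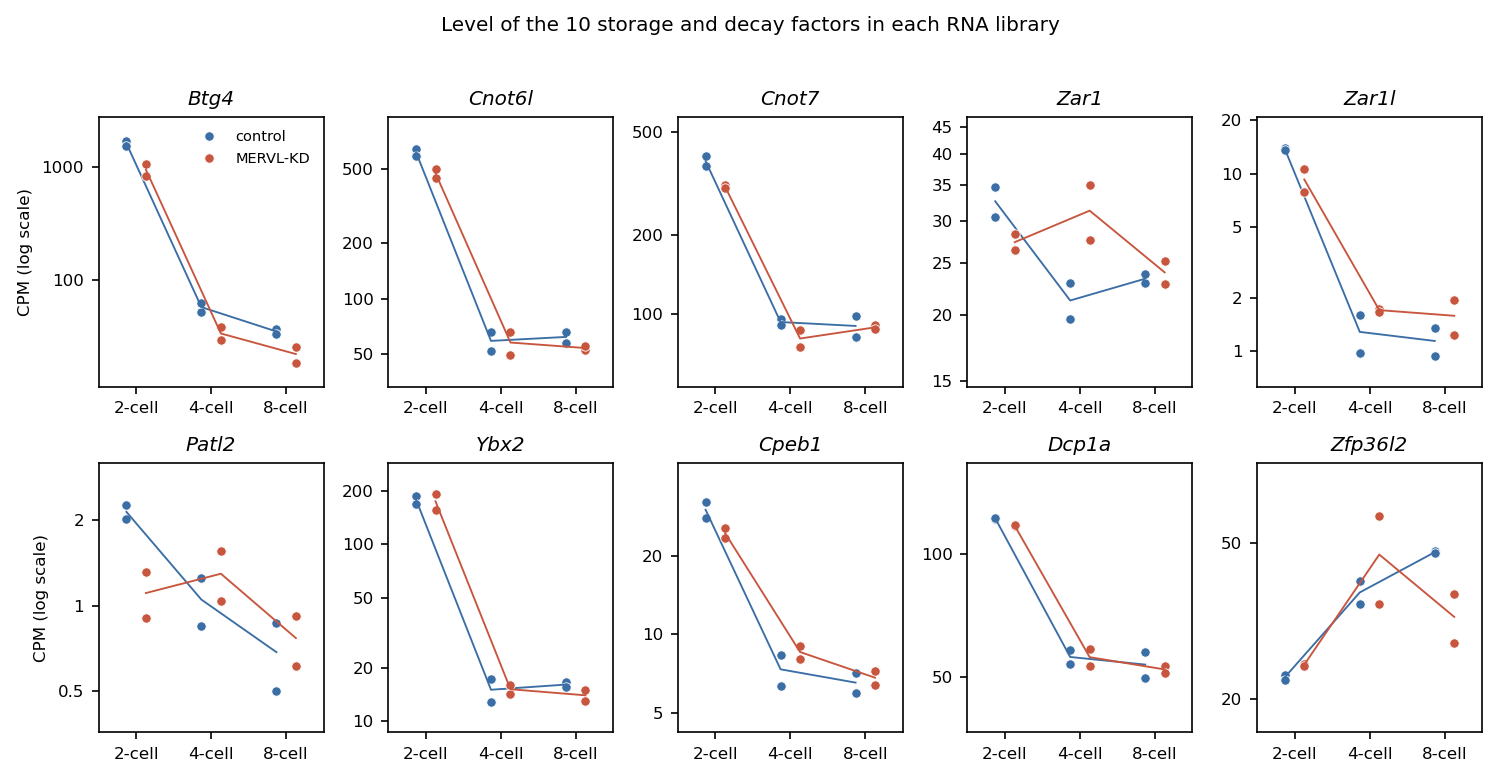
Level of each member in each of the 12 libraries, in CPM on a log axis, by stage; points are libraries and lines join the means of the 2 libraries of control (blue) and MERVL-KD (red) embryos. *Btg4* drops from 1680 and 1530 CPM to 51.9 and 62.5 CPM between 2 and 4 cells in control embryos, while *Zar1* stays between 19.6 and 35.1 CPM in all libraries. The mean of *Zfp36l2* rises from 2 to 4 cells in both groups and then reads lower at 8 cells in MERVL-KD embryos.

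The first question of the design is how these levels differ when MERVL is depleted. In 2-cell embryos *Btg4* and *Cnot6l* were lower in MERVL-KD, and no member was higher (edgeR's quasi-likelihood test on the 4 libraries of the stage, adjusted p under 0.05). That is 2 of 10 members lower, beside 7.23% of the 21347 features tested that were lower and 6.74% that were higher. The median log2 difference was -0.23 over the members and 0.02 over all features. Library size in place of TMM moved the median of all features from 0.02 to 0.31, and members then split into 1 lower (*Btg4*) and 3 higher (*Ybx2*, *Dcp1a* and *Zfp36l2*). The shares of all features called under library size are not given here, so this split has no background to be read against.

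*Btg4* stood at 1680 and 1530 CPM in the control libraries and at 820 and 1060 CPM in MERVL-KD. Both MERVL-KD libraries lay below both control libraries, by 1.61-fold in the fit (log2 fold change -0.69, SE 0.104, 95% interval -0.91 to -0.46, adjusted p = 0.000564). *Cnot6l* was at 648 and 591 CPM in control and at 450 and 504 CPM in MERVL-KD, again with no overlap (log2 fold change -0.29, SE 0.085, adjusted p = 0.0299). The *Cnot6l* call was lost under library size (log2 fold change -0.01, adjusted p = 0.956), in 1 fit of all 12 libraries (adjusted p = 0.0831), and without the first control library (adjusted p = 0.194) or the first MERVL-KD library (adjusted p = 0.105). *Btg4* passed under every alternative, with log2 fold changes from -0.89 to -0.40.

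The third deadenylation factor, *Cnot7*, was at 403 and 369 CPM in control and 312 and 304 CPM in MERVL-KD. These libraries did not overlap either, and the difference did not pass (log2 fold change -0.24, SE 0.0838, adjusted p = 0.0665). Without the second control library it did (log2 fold change -0.33, adjusted p = 0.0366).

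Storage factors showed no difference that passed at 2 cells. *Zar1l* was at 14.0 and 13.6 CPM in control and 10.7 and 7.86 CPM in MERVL-KD, without overlap (log2 fold change -0.49, SE 0.193, adjusted p = 0.112), and it passed without the first MERVL-KD library (log2 fold change -0.74, adjusted p = 0.0189). *Patl2* was at 2.01 and 2.26 CPM against 1.31 and 0.905 CPM (log2 fold change -0.86, SE 0.398, adjusted p = 0.182), the widest interval of the stage, -1.70 to -0.01. *Zar1* was at 30.5 and 34.8 CPM against 26.4 and 28.3 CPM, and *Cpeb1* at 32.3 and 28.1 CPM against 25.6 and 23.5 CPM (log2 fold changes -0.17 and -0.22, adjusted p = 0.436 and 0.351). In all 4 genes both MERVL-KD libraries read below both control libraries on this scale. So did those of *Dcp1a*, whose fitted fold was positive, and the share of all features that did so was not counted. Over the alternatives the log2 fold changes of *Zar1* and *Cpeb1* reached 0.11 and 0.07. *Ybx2* overlapped between the groups, at 189 and 170 CPM in control and 157 and 194 CPM in MERVL-KD (log2 fold change 0.05, SE 0.106, 95% interval -0.18 to 0.28, adjusted p = 0.825).

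*Dcp1a* was at 122 and 123 CPM in control and 117 and 118 CPM in MERVL-KD (log2 fold change 0.03, SE 0.0878, 95% interval -0.16 to 0.22, adjusted p = 0.887). *Zfp36l2* was at 23.0 and 22.4 CPM against 24.6 and 24.3 CPM (log2 fold change 0.19, SE 0.137, 95% interval -0.10 to 0.48, adjusted p = 0.423). The fits at a single stage scale on its 4 libraries alone, so their folds differ slightly from ratios of the CPM printed here. For *Dcp1a* the fold has the opposite sign from the ratio of those CPM values, and both are within the error.

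The oocyte markers had a lower sum in MERVL-KD at this stage, carried mostly by *Bmp15* and *Oosp1*. The summed level of *Bmp15*, *Gdf9*, *Mos*, *Oosp1*, *Zp2* and *Zp3* was 1070 to 1120 CPM in control and 671 to 767 CPM in MERVL-KD 2-cell libraries. Of the 6 genes, 2 passed, both lower: *Bmp15*, an oocyte growth factor (log2 fold change -0.81, SE 0.109, adjusted p = 0.000173), and *Oosp1*, an oocyte-secreted protein (log2 fold change -0.32, SE 0.0846, adjusted p = 0.0187). *Zp3*, a zona pellucida gene, read the other way, at 21.5 and 24.1 CPM in control and 29.2 and 26.4 CPM in MERVL-KD, and did not pass (log2 fold change 0.37, SE 0.139, adjusted p = 0.0952). The 5 markers of 2-cell genome activation summed to 331 to 399 CPM in control and 200 to 257 CPM in MERVL-KD, and the 5 markers of the 8-cell stage to 28.6 to 28.8 and 35.3 to 35.6 CPM. The part of these shifts in the *Btg4* and *Cnot6l* differences was not tested.

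In 4-cell embryos *Btg4* alone passed among the members, lower in MERVL-KD. Of 20505 features tested, 5.75% were lower and 4.83% higher. The *Btg4* libraries were at 51.9 and 62.5 CPM in control and at 29.0 and 37.9 CPM in MERVL-KD, with no overlap (log2 fold change -0.77, SE 0.155, 95% interval -1.11 to -0.43, adjusted p = 0.00863). The difference passed under every alternative, from -0.97 to -0.59. *Cnot6l*, by contrast with the 2-cell stage, overlapped fully at 52.3 and 66.1 CPM in control and 49.6 and 66.4 CPM in MERVL-KD (log2 fold change -0.02, SE 0.158, 95% interval -0.37 to 0.32, adjusted p = 0.957). *Cnot7* was at 95 and 90.5 CPM against 74.1 and 86.2 CPM (log2 fold change -0.21, SE 0.111, adjusted p = 0.285).

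*Zar1* had the next smallest p at 4 cells, in the other direction. It was at 19.6 and 22.9 CPM in control and at 27.6 and 35.1 CPM in MERVL-KD, both above the control libraries, and just missed the threshold (log2 fold change 0.56, SE 0.166, 95% interval 0.20 to 0.93, adjusted p = 0.0524). It passed under library size, DESeq2, both other filters on low counts, halved counts and 1 fit of 12 libraries, with log2 fold changes from 0.56 to 0.62 and adjusted p from 0.00978 to 0.0385, and without the first MERVL-KD library (0.72, adjusted p = 0.011). The oocyte markers summed to 99.0 to 99.2 CPM in control and 110 to 115 CPM in MERVL-KD at this stage, and 0 of the 6 passed. *Gdf9*, *Zp2*, *Zp3* and *Mos* read higher on average in MERVL-KD. *Bmp15* (28.8 and 33 against 23.4 and 23.7 CPM) and the mean of *Oosp1* (7.5 against 6.58 CPM) read lower. The 8-cell markers summed to 55.4 to 58 CPM in control and 74.2 to 97 CPM in MERVL-KD, with 2 of 5 passing, both higher. The part of these markers in the *Zar1* values was not tested.

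For the other 6 members the 4-cell groups did not differ beyond their error. *Ybx2* was at 17.2 and 12.8 CPM against 14.2 and 16.0 CPM, *Cpeb1* at 6.33 and 8.34 CPM against 8.07 and 9.03 CPM, and *Dcp1a* at 58.2 and 53.7 CPM against 58.6 and 53.2 CPM. *Zar1l* was at 1.59 and 0.973 CPM against 1.73 and 1.67 CPM, and *Patl2* at 0.851 and 1.25 CPM against 1.04 and 1.55 CPM. Their log2 fold changes lay between 0.00 and 0.40. *Zfp36l2* was at 39.9 and 34.8 CPM against 34.8 and 58.5 CPM, and the second MERVL-KD library stood apart from the other 3 (log2 fold change 0.32, SE 0.217, adjusted p = 0.411). Without the first MERVL-KD library, which leaves that high library alone in its group, the log2 fold change was 0.64.

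At 8 cells *Btg4* was again the only member that passed. It was at 36.4 and 33.3 CPM in control and at 25.5 and 18.5 CPM in MERVL-KD, without overlap (log2 fold change -0.66, SE 0.169, 95% interval -1.02 to -0.29, adjusted p = 0.0468). Of 19153 features, 3.51% were lower and 1.62% higher. This call lay close to the threshold and was lost without the first control library (log2 fold change -0.58, adjusted p = 0.153), without the second MERVL-KD library (log2 fold change -0.44, adjusted p = 0.0969), under library size (log2 fold change -0.52, adjusted p = 0.126), in a non-robust fit (adjusted p = 0.0629) and with repeat families left out (adjusted p = 0.0534).

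*Zfp36l2* was at 47.6 and 47.0 CPM in control 8-cell libraries and at 36.9 and 27.8 CPM in MERVL-KD. The groups did not overlap and the difference did not pass (log2 fold change -0.54, SE 0.15, 95% interval -0.86 to -0.21, adjusted p = 0.0619). DESeq2 and the lowest filter on counts called it (adjusted p = 0.0184 and 0.00666), and it passed without the first MERVL-KD library (log2 fold change -0.76, adjusted p = 0.000383). For the other 8 members log2 fold changes lay between -0.19 and 0.48. *Cnot6l* stood in MERVL-KD at 53.0 and 55.3 CPM, *Cnot7* at 90.0 and 87.0 CPM, *Zar1* at 25.2 and 22.8 CPM, *Ybx2* at 14.9 and 13.0 CPM and *Dcp1a* at 53.2 and 51.1 CPM. *Cpeb1* was at 7.21 and 6.41 CPM, *Zar1l* at 1.93 and 1.23 CPM and *Patl2* at 0.923 and 0.616 CPM.

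**Figure D2:**
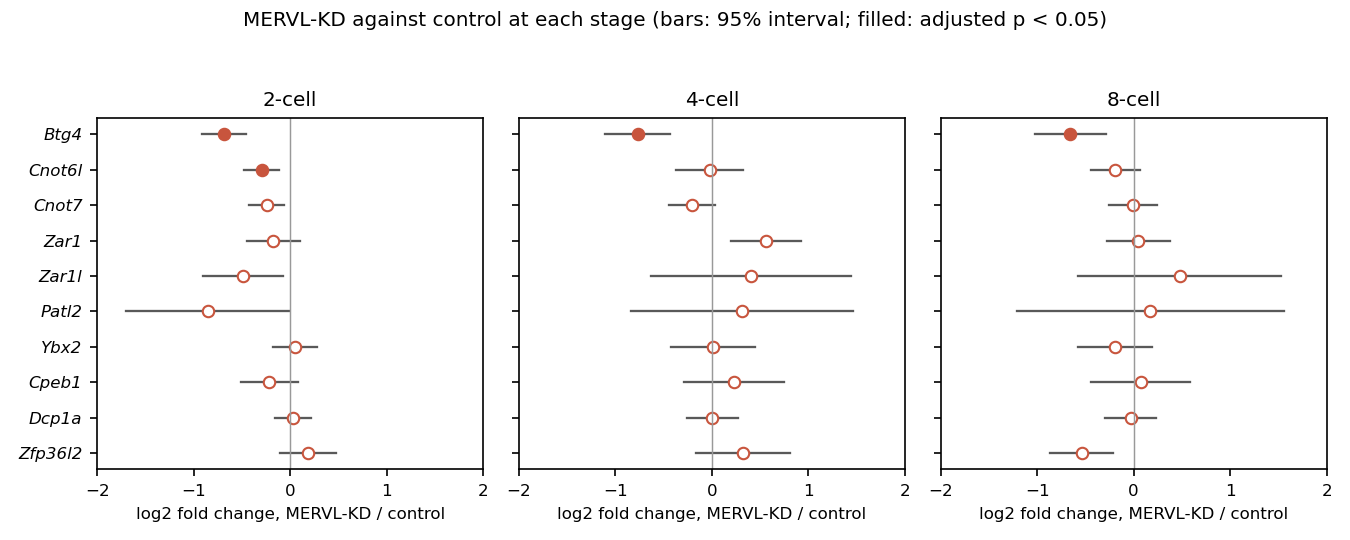
Log2 fold change of MERVL-KD against control for the 10 members at 2, 4 and 8 cells, with 95% intervals; filled points have an adjusted p under 0.05. *Btg4* is filled and negative at the 3 stages (-0.69, -0.77 and -0.66), *Cnot6l* at 2 cells only, and the widest intervals are those of *Patl2* and *Zar1l*.

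The second question is whether the relative levels of the members changed to the same extent in both groups between stages. In MERVL-KD embryos 7 members fell and 1 rose between 2 and 4 cells, while 26.8% of all features fell and 26.9% rose. The 7 were *Btg4*, *Ybx2*, *Cnot6l*, *Zar1l*, *Cnot7*, *Cpeb1* and *Dcp1a*, all by at least 2-fold, as did 22.4% of all features. *Zfp36l2* rose (log2 fold change 0.93, SE 0.19, adjusted p = 0.000333). *Zar1* did not pass in MERVL-KD embryos (log2 fold change 0.20, SE 0.156, 95% interval -0.13 to 0.52, adjusted p = 0.304), nor did *Patl2* (0.22, adjusted p = 0.747).

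The *Btg4* step was -4.81 in control and -4.82 in MERVL-KD on the log2 scale. The interaction, the step in MERVL-KD minus that in control, was -0.01 (SE 0.234, 95% interval -0.51 to 0.50, adjusted p = 1). *Ybx2* and *Dcp1a* gave interactions of 0.04 and 0.05 (95% intervals -0.38 to 0.46 and -0.27 to 0.38). *Cnot6l* fell by 3.39 on the log2 scale in control and by 3.04 in MERVL-KD (interaction 0.35, SE 0.185, 95% interval -0.04 to 0.74, adjusted p = 0.353).

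*Zar1* was the 1 member of 10 whose step differed between the groups, while 2.47% of all features passed this test with a higher and 1.65% with a lower step. It fell by 0.62 on the log2 scale in control embryos and stood 0.20 higher at 4 cells in MERVL-KD (interaction 0.82, SE 0.222, 95% interval 0.35 to 1.28, adjusted p = 0.04). The call was lost under library size (0.51, adjusted p = 0.198) and without any of 5 libraries. These were the second control and both MERVL-KD 2-cell libraries (0.71, 0.76 and 0.85, adjusted p = 0.167, 0.141 and 0.0762), the first control 4-cell library (0.71, adjusted p = 0.168) and the second MERVL-KD 4-cell library (0.52, adjusted p = 0.299). Its sign was positive under every alternative, from 0.51 to 0.98. Oocyte markers moved with it in this interaction, 2 of 6 passing, both higher (*Gdf9* 0.76, adjusted p = 0.0219, and *Zp2* 0.87, adjusted p = 0.0121), with a median of 0.54 over the 6 and 0.04 over all features, and their part in the *Zar1* value was not tested. *Zar1l* and *Cpeb1* gave 0.97 (SE 0.459, adjusted p = 0.282) and 0.52 (SE 0.274, adjusted p = 0.342), which did not pass.

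Between 4 and 8 cells in MERVL-KD embryos no member passed in edgeR with TMM and filterByExpr, 3 members (*Btg4*, *Zfp36l2* and *Zar1*) had an unadjusted p under 0.05, and DESeq2 called 1, *Btg4*. Of all features, 2.4% fell and 2.22% rose, and 18.1% had an unadjusted p under 0.05. *Btg4* changed by -0.61 on the log2 scale (SE 0.174, adjusted p = 0.0692), beside -0.72 in control. In edgeR it passed under library size (adjusted p = 0.0469), with a minimum of 1 or 10 counts (2.03e-05 and 0.0479), in a non-robust fit (0.034) and with halved counts (0.0407). The *Btg4* step was -0.78 without the first MERVL-KD 4-cell library and -0.85 without the first MERVL-KD 8-cell library. That of *Zfp36l2* was -0.85 without the first MERVL-KD 4-cell library, which leaves its high library alone in the group. In edgeR the *Zfp36l2* step passed under library size (adjusted p = 0.049) and with a minimum of 1 count (adjusted p = 0.0278). *Zfp36l2* changed by -0.53 in MERVL-KD and by 0.34 in control, and the difference of these steps did not pass (interaction -0.87, SE 0.266, 95% interval -1.42 to -0.31, adjusted p = 0.158). This interaction was -1.19 without the first MERVL-KD 4-cell library. It passed with the lowest filter on counts (-0.86, adjusted p = 0.014). With TMM and filterByExpr no member passed this second interaction in edgeR, none passed in DESeq2, 2 had an unadjusted p under 0.05 (*Zfp36l2* and *Zar1*), beside 11.8% of all features. After adjustment 0.302% of all features passed higher and 0.338% lower.

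**Figure D3:**
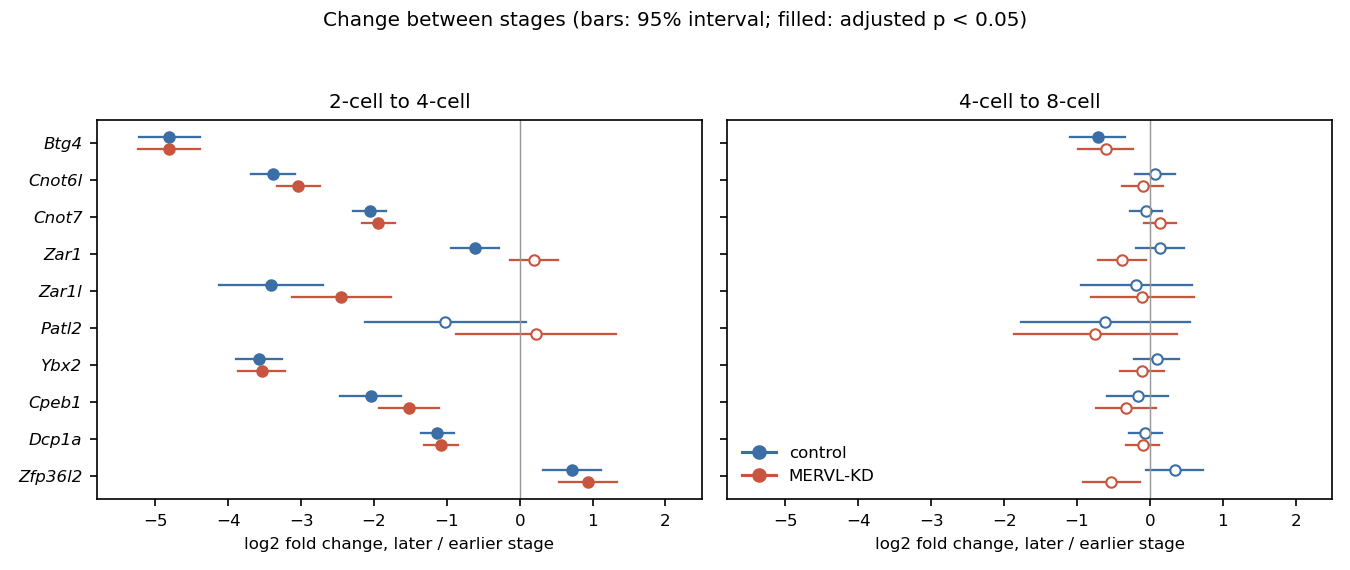
Log2 fold change from 2 to 4 cells (left) and from 4 to 8 cells (right) in control (blue) and MERVL-KD (red) embryos, with 95% intervals; filled points have an adjusted p under 0.05. Control and MERVL-KD points lie close for *Btg4* (-4.81 and -4.82) on the left. *Zar1* (-0.62 and 0.20) is the member whose left-hand steps differed at an adjusted p under 0.05. The left-hand points of *Patl2* (-1.02 and 0.22) and *Zar1l* (-3.42 and -2.45) lie farther apart, with wider intervals.

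Related genes outside the set show where the members differ from their families. Among the BTG genes *Btg4* was at 627 ± 42.2 RPKM in control 2-cell embryos, beside 6.15 ± 0.371 for *Btg1*, 2.06 ± 0.152 for *Btg2* and 2.81 ± 0.385 for *Btg3* (mean ± SD, n = 2). By 8 cells *Btg1* was at 28.6 ± 3.14 RPKM, above *Btg4* at 13.6 ± 0.844. In MERVL-KD 2-cell embryos *Btg4* was at 368 ± 67.4 and *Btg2*, a growth-arrest gene, at 11 ± 2.3 RPKM (log2 fold change of *Btg2* 2.50, SE 0.181, adjusted p = 1.79e-07). *Btg4* therefore exceeded the other 3 genes together at 2 cells in both groups.

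For the catalytic subunits the balance moved with stage. *Cnot6l* exceeded *Cnot6* at 2 cells, 60.1 ± 3.86 against 15.7 ± 1.02 RPKM, and lay below it at 4 cells, 5.74 ± 0.948 against 7.73 ± 0.208. *Cnot7* was at 66.3 ± 4.03 RPKM beside 93.2 ± 3.86 for *Cnot8* at 2 cells, and at 15.9 ± 0.553 beside 90.3 ± 4.3 at 4 cells. *Cnot8* did not pass between those stages in control embryos (log2 fold change -0.05, SE 0.0919, adjusted p = 0.7), and was lower in MERVL-KD than in control at 4 cells (log2 fold change -0.50, SE 0.0908, adjusted p = 0.00484). Of these 4 catalytic subunits *Cnot8* was the highest at 4 cells on this scale.

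Among storage genes some paralogs also moved apart. *Ybx2* was at 95.1 ± 7.14 RPKM beside 213 ± 12.7 for *Ybx1*, the widely expressed Y-box gene, at 2 cells, and at 7.94 ± 1.67 beside 495 ± 27.1 at 4 cells. *Ybx1* rose over that step (log2 fold change 1.22, SE 0.0851, adjusted p = 6.49e-11). Among the CPEB genes *Cpeb4* was the highest at 2 cells at 50.4 ± 3.25 RPKM and *Cpeb2* at 4 cells at 21.0 ± 2.08, with *Cpeb1* at 7.21 ± 0.703 and 1.75 ± 0.339. *Cpeb4* read lower at 4 cells too, at 14.6 ± 0.0817 RPKM. *Patl2* stayed below *Patl1*, 0.876 ± 0.0722 against 14.9 ± 0.873 RPKM at 2 cells, and *Dcp1a* above *Dcp1b*, 14.9 ± 0.0923 against 0.0952 ± 0.0066. *Zfp36l2* was higher than *Zfp36* at each stage in control, 6.43, 10.6 and 13.4 against 2.75, 7.28 and 7.3 RPKM, and both rose from 2 to 4 cells. RPKM divides by the summed exon length of all annotated isoforms, so genes with long rarely used exons read low.

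**Figure D4:**
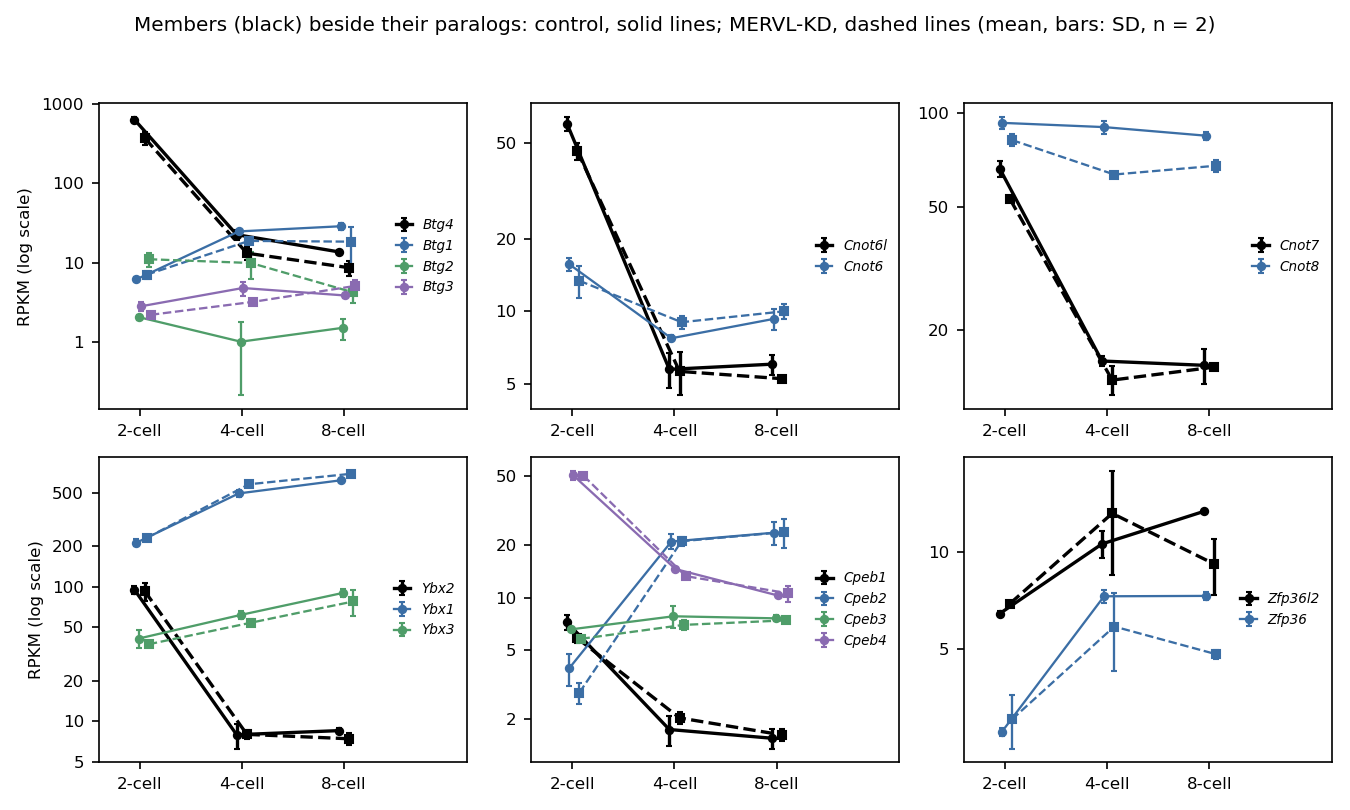
Mean level in RPKM (log axis, bars give SD, n = 2) of 6 members (black) and their paralogs (colours) by stage, with solid lines for control and dashed lines for MERVL-KD embryos. *Btg4*, *Cnot6l*, *Cnot7*, *Ybx2* and *Cpeb1* fall from 2 to 4 cells in control embryos. Of their paralogs *Btg1*, *Ybx1* and *Cpeb2* rise and *Cnot8* stays near 90 RPKM. *Cpeb4* (50.4 to 14.6 RPKM), *Cnot6* (15.7 to 7.73 RPKM) and the mean of *Btg2* (2.06 to 1.01 RPKM) read lower at 4 cells, like the members.

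The wider pathway was followed with 5 lists of 82 further genes. In control embryos 37 of the 82 rose and 25 fell from 2 to 4 cells, and in MERVL-KD 42 rose and 27 fell, beside 26.6% and 28.1% of all features that rose and fell in control. Deadenylation genes split into 6 higher and 9 lower in control, with *Tob2*, an anti-proliferative adaptor of the BTG/TOB family (-3.15), and *Pabpn1l*, an oocyte poly(A)-binding protein (-2.77), falling most and *Btg1* (2.00) and the scaffold *Cnot1* (1.39) rising most on the log2 scale. Decapping genes split into 9 higher and 3 lower, led by *Lsm5* (3.74) and *Lsm4* (2.81) of the LSM ring and by the decapping enzyme *Dcp2* (-2.58) and *Lsm1* (-1.66). In the exosome and uridylation list 8 were higher and 3 lower, with *Exosc7* (2.23), *Exosc9* (2.21), the nuclease *Dis3l* (-2.63) and *Ttc37* of the SKI complex (-2.49) at the ends. The storage list had 8 higher and 7 lower, with *Cpeb2* (2.41) and *Cpsf1* (2.06) up and the oocyte cap-binding protein *Eif4e1b* (-4.48) and *Dazl* (-3.63) down, and the list of decay regulators 6 higher and 3 lower, with *Zfp36* (1.40) up. Medians of the lists lay between -0.46 and 0.53, above the -2.05 of the 10 members. This gap depends on which genes were listed, since members and lists were chosen with earlier results of these data known. Listed genes such as *Eif4e1b*, *Dazl*, *Tob2* and *Pabpn1l* fell by more than the median of the members.

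Calls of pathway genes between MERVL-KD and control are given beside the shares of all features. At 2 cells 5 of 82 were higher and 7 lower (23 and 1 under library size), at 4 cells 3 and 8 of the 81 tested (6 and 6), and at 8 cells 1 and 4 of the 80 tested (7 and 0). Of all features 6.74% were higher and 7.23% lower at 2 cells, 4.83% and 5.75% at 4 cells, and 1.62% and 3.51% at 8 cells. These and the following shares of all features come from the TMM fits, and those under library size are not given here. Changes of at least 2-fold were those of *Btg2*, higher by 2.50, 3.32 and 1.49 on the log2 scale at the 3 stages, of *Zfp36l1*, an AU-rich element binder, higher by 1.53 at 2 cells, and of *Dis3l*, lower by -1.01 at 4 cells. *Pan2* and *Pan3*, the subunits of the other cytoplasmic deadenylase, were lower at 2 cells (-0.36 and -0.24, adjusted p = 0.0104 and 0.0437) and at 4 cells (-0.81 and -0.48, adjusted p = 0.0125 and 0.00787), and were named after their values were seen. Between stages the interaction passed for 4 of 82 genes from 2 to 4 cells, 3 higher and 1 lower (0 and 8 under library size), beside 2.47% and 1.65% of all features, with *Tut4*, a terminal uridylyltransferase (1.26, adjusted p = 0.0236), and *Dazl* (1.06, adjusted p = 0.0181) past 2-fold. From 4 to 8 cells 7 rose and 1 fell in control (2 and 11 under library size), beside 3.12% and 3.02% of all features. In MERVL-KD 3 rose and 3 fell over that step (1 and 6), beside 2.22% and 2.4% of all features.

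The pattern of *Btg4* over the 12 libraries was closest, among 7584 genes of at least 10 CPM on average, to that of *E330034G19Rik* (Pearson r of log2 CPM 0.998), *Sfmbt1*, *Tshz2*, *Wee2* and *Peak1* (0.997 each, to 3 digits). The 12 points share the 3 stages, so any gene that drops after 2 cells correlates highly. *Wee2*, an oocyte kinase that holds meiotic arrest, averaged 671 CPM in control and 486 CPM in MERVL-KD 2-cell embryos and 15.1 and 8.61 CPM at 4 cells. *E330034G19Rik* averaged 562 and 253 CPM at 2 cells. Within the set, r with *Btg4* ran from 0.952 to 0.987 for *Zar1l*, *Cpeb1*, *Ybx2*, *Dcp1a*, *Cnot7* and *Cnot6l*, and was 0.659 for *Patl2*, 0.524 for *Zar1* and -0.767 for *Zfp36l2*.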

How the data were processed

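RNA of pooled embryos was reverse transcribed with random hexamers, depleted of ribosomal RNA and sequenced as strand-preserving libraries, so the counts do not read poly(A) tail length. The authors aligned the reads to GRCm38 with STAR 2.5.3a and used featureCounts to assign uniquely aligned reads to GENCODE vM25 genes and RepeatMasker families; the deposited values are raw counts, not normalized. Among counts of 1 to 50, 71.8% to 74.7% were even, so the counts were also tested halved. The 12 libraries were grouped by their labels. The ATAC libraries of the series were not used here.

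Fits used edgeR 4.0.16 (R 4.3.3): filterByExpr, TMM scaling and a robust quasi-likelihood test over all genes and repeat families, with Benjamini-Hochberg adjustment and a threshold of 0.05. MERVL-KD was compared with control on the 4 libraries of each stage. Stage steps and interactions came from 1 fit of 12 libraries and share libraries with those comparisons. Intervals are 95% from the t distribution of each fit. The steps were tested on simulated data. Alternatives were library size, DESeq2's size factors, DESeq2 1.42.0, other count filters (at least 1 count in total, or 10 in every library), halved counts, a non-robust fit, repeats left out, other sets of libraries fitted, the replicate number as a block, and each library left out.

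Named genes were the 10 members, MERVL-int, the 5 genes most like *Btg4*, and per pathway list and comparison at most 2 genes in each direction among those called at 2-fold or more; paralogs and further genes were chosen after their values were seen. Members and lists were chosen with earlier results of these data known. Sequences came from GENCODE vM21 transcripts matched to GRCm38.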

Additional observations from a re-analysis of the deposited data

Results flagged for a closer look

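The step of *Zar1* from 2 to 4 cells differed between MERVL-KD and control embryos by a test of the difference itself. The interaction was 0.82 on the log2 scale (edgeR, SE 0.222, adjusted p = 0.04), with adjusted p from 0.00729 to 0.299 over the alternatives. Control libraries went from 30.5 and 34.8 CPM to 19.6 and 22.9 CPM and MERVL-KD libraries from 26.4 and 28.3 CPM to 27.6 and 35.1 CPM. In the same interaction 2 of 6 oocyte markers passed, both higher (median of the 6 0.54, of all features 0.04), and their part was not tested. Groups of 2 libraries are too small to single out 1 library.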

How the results depend on the processing

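The 9 members that passed from 2 to 4 cells in control and the 8 in MERVL-KD gave 9 to 10 and 8 calls under every alternative, and *Btg4* was lower in MERVL-KD at 2 and 4 cells in all of them. Over the members' values, 1143 alternatives kept direction and side of the threshold, 31 newly passed, 19 no longer passed and 87 changed the sign of a value that passed neither way. The cause of the shifts below was not tested. Shares of all features called under the alternatives are not given here, so counts under them have no background to be read against. At 2, 4 and 8 cells 2, 1 and 1 members and 12, 11 and 5 pathway genes differed between MERVL-KD and control. From 4 to 8 cells 1 member and 8 pathway genes passed in control and 0 and 6 in MERVL-KD, and the interactions gave 1 and 4 (2 to 4 cells) and 0 and 0 (4 to 8 cells).

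Under library size members numbered 4, 2 and 0 at the 3 stages, 2 from 4 to 8 cells in MERVL-KD and 0 in the first interaction, and pathway genes 24 at 2 cells, 13 from 4 to 8 cells in control and 8 in the first interaction. DESeq2 called 2 members at 4 and at 8 cells and 1 from 4 to 8 cells in MERVL-KD, and 9 pathway genes at 8 cells, 15 and 14 from 4 to 8 cells in control and MERVL-KD, and 8 and 1 in the interactions. A minimum of 1 count gave 2 members at 4 cells, 2 at 8 cells, 2 from 4 to 8 cells in MERVL-KD and 1 in the second interaction, and 8 pathway genes at 8 cells. A minimum of 10 counts gave 2 members at 4 cells, and 1 member and 12 pathway genes from 4 to 8 cells in MERVL-KD; halved counts gave 2, 1 and 10. The non-robust fit gave 0 members at 8 cells and 1 from 4 to 8 cells in MERVL-KD, the fit without repeats 0 at 8 cells, 1 fit of 12 libraries 1 at 2 cells and 2 at 4 cells, and the 4 compared libraries alone 2 pathway genes from 4 to 8 cells in MERVL-KD.

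Leaving out each library in turn, where a lone library is assumed to vary like the others, gave 1 to 3 members and 8 to 17 pathway genes at 2 cells, 1 to 3 and 6 to 12 at 4 cells, and 0 to 2 and 2 to 12 at 8 cells. From 2 to 4 cells it gave 9 members and 58 to 61 pathway genes in control and 8 and 58 to 62 in MERVL-KD. From 4 to 8 cells it gave 0 to 1 and 4 to 6 in control and 0 to 2 and 3 to 8 in MERVL-KD, and in the interactions 0 to 1 and 1 to 3, and 0 to 1 and 0 to 1.

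Replicate numbers showed no pairing of the libraries over all tested features: over 15 pairs of groups the same-numbered libraries' deviations correlated from -0.0155 to 0.0203, with 0 over 0.1. A correlation over all features cannot exclude pairing in part of the genes. With the replicate block 2 members and 8 pathway genes passed at 8 cells (*Zfp36l2* added, adjusted p = 0.0203) and 0 members from 4 to 8 cells in control (*Btg4*, adjusted p = 0.0509). With 2 pools per group, the 15 to 82 counts of *Patl2* and 28 to 494 of *Zar1l* per library limit their precision most.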
